A study of Zea mays with 4 samples.

Results

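The 8 genes described here encode enzymes of starch synthesis and branching and were followed in the maize leaf. They were listed by their enzyme function, with earlier results of these data known, and all 8 listed gene names were found among the 43110 distinct loci of the expression table, each at a single locus. They encode the small and large subunits of leaf ADP-glucose pyrophosphorylase (AGPase), the soluble starch synthases SS1 and SS3, the granule-bound starch synthase GBSSII, the starch branching enzymes SBE2a and SBE1, and the isoamylase sugary1 (su1). RNA came from the mature part of leaf 6 of B73, the inbred line whose genome is the maize reference, grown in hydroculture. All plants first received 4 mM nitrate. The high nitrogen group stayed on 4 mM, and the low nitrogen group was moved to 0.04 mM nitrate once leaf 3 was fully expanded, with calcium chloride added to balance the calcium. There were 2 libraries per treatment, 4 in all, and the question was how low nitrogen supply altered transcript levels. The 2 libraries of a treatment are described as biological replicates, while the sources used here give neither the hour of harvest nor the number of plants behind a library.

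Starch is built inside chloroplasts. AGPase makes the glucosyl donor ADP-glucose from glucose 1-phosphate and ATP and is the main control point of the pathway. Soluble starch synthases then lengthen the chains of amylopectin, the branched polymer, granule-bound starch synthase makes the mostly linear amylose, branching enzymes cut and rejoin chains to form branch points, and isoamylase trims misplaced branches so that the polymer can crystallise. In maize leaves, starch is laid down by day mainly in the bundle sheath cells and broken down at night. Several of these enzymes have separate isoforms in leaf and endosperm.

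Levels are in FPKM (fragment counts divided by transcript length and by library depth), so values of different genes can be compared. FPKM summed over all loci to between 1764398 and 1798408 at high nitrogen and between 1043303 and 1141129 at low nitrogen, while the median log2 FPKM of loci with at least 1 FPKM in every library lay between 3.53 and 3.57 in all 4 libraries. Total fragment counts are not part of these values. Relative depth was estimated from loci with a mean under 1 FPKM, as the inverse of their most common ratio to high nitrogen replicate 1. This put the other 3 libraries at 1.16 to 1.75 times the depth of that library, with both low nitrogen libraries the deeper ones. The estimate assumes that such loci mostly hold equal small fragment counts, which was not tested. The mesophyll markers pep1 (PEP carboxylase) and ppdk1 (pyruvate phosphate dikinase) summed to 25745 to 37646 FPKM at high nitrogen and 10517 to 13608 FPKM at low nitrogen, and both were lower in each low nitrogen library. Of the 4 bundle sheath markers listed, rca1 (rubisco activase) alone was analysed here, with 1709 and 2260 FPKM at high nitrogen and 1236 and 875 FPKM at low nitrogen. Of the 3 endosperm markers analysed, the regulator o2 was at 0 in 1 library of each treatment and at most 0.0980 FPKM in any, and the 3 summed to 3.38 to 5.75 FPKM in a library, and the highest single value was 3.73 FPKM (the zein gene gz27).

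The genes covered a wide range of levels. In high nitrogen the AGPase small subunit stood highest with a mean of 478 FPKM, followed by the large subunit with 245, SS1 with 222, GBSSII with 96.6, SBE2a with 81.4, SBE1 with 13.5, su1 with 2.28 and SS3 with 0.429 FPKM. Only GBSSII and SBE2a, neighbours in this order, overlapped between replicates. The AGPase large subunit and SS1 nearly met, at 237.0 FPKM in replicate 1 and 236.8 FPKM in replicate 2, so their separation is nominal. In low nitrogen SS1 (171 FPKM) came second, above the AGPase large subunit (131 FPKM), and SBE2a (68.0 FPKM) came above GBSSII (24.4 FPKM). There the replicates overlapped between SS1 and the AGPase large subunit, between GBSSII and SBE1, and between su1 and SS3.

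**Figure D1:**
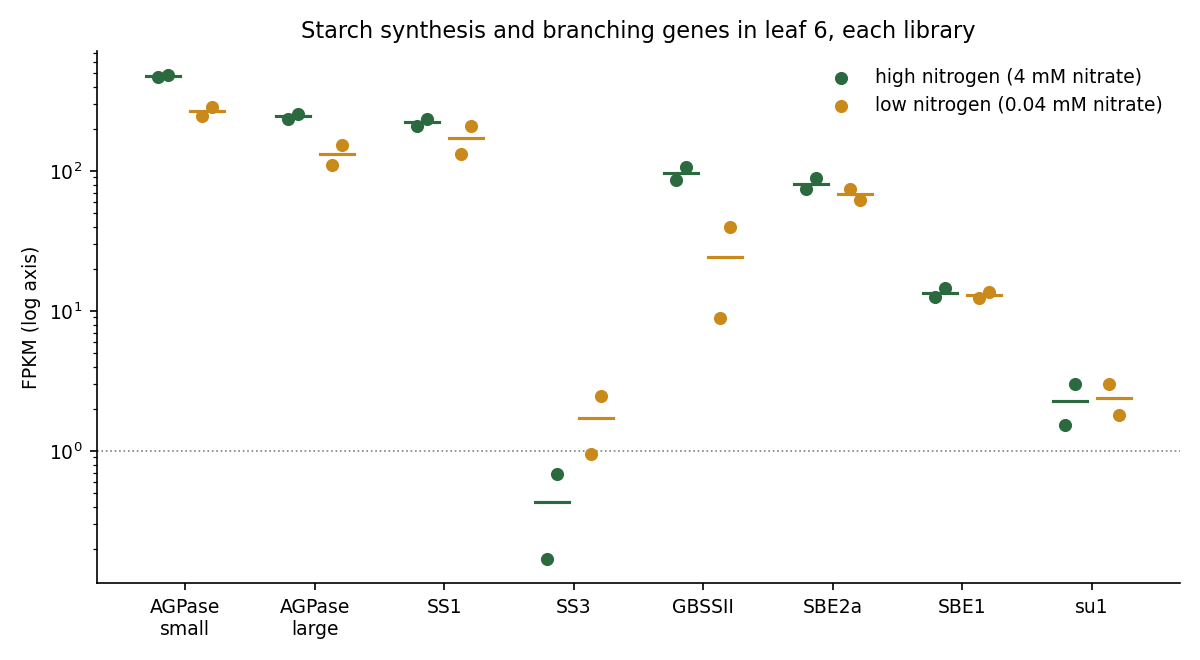
FPKM on a log axis of the 8 starch genes in each library, with 2 points per treatment and a bar at their mean. Both low nitrogen points lie below both high nitrogen points for the 2 AGPase subunits and GBSSII, SBE2a is separated by a very small margin, SS3 lies higher at low nitrogen, and the dotted line marks 1 FPKM, the minimum for testing.

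Treatments were compared by limma's moderated test of log2(FPKM + 1). It ran over the 22889 loci that reached 1 FPKM in 2 or more libraries, and a locus was called at a Benjamini-Hochberg adjusted p under 0.05 with an absolute log2 fold change above 1. SS3 did not pass this filter, so 7 of the 8 genes were tested. None of the 7 was called, while 0.537% of all tested loci were called. At an unadjusted p under 0.05, 3 of the 7 genes were lower at low nitrogen (both AGPase subunits and GBSSII) and none was higher, against 10.8% of all tested loci that were lower at this level. This count was 0 of 7 with equal FPKM sums, GBSSII alone remained under quantile normalization, and the count changed with the library left out. The 10.8% is for FPKM as deposited. The share was not computed under these other settings or for loci with a mean of at least 50 FPKM. The median log2 fold change of the 7 genes was -0.41, against -0.01 over all tested loci and -0.34 over the 3033 tested loci with a mean of at least 50 FPKM, a level that 5 of the 8 genes reached. It was -0.74 without low nitrogen replicate 2 and -0.63 over the 6 genes that passed a minimum of 5 FPKM. Under quantile normalization it was -0.06, against 0.004 over all tested loci, and with equal FPKM sums 0.29, against 0.59. In 4 of the 7 genes, all of them among these 5, each low nitrogen value was under each high nitrogen value, compared with 27.2% of all tested loci and 47.1% of those with a mean of at least 50 FPKM. The smallest two-sided p that exact permutation of 2 libraries against 2 allows is 0.333. The p-values below therefore depend on limma's pooling of the spread over loci.

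At the first step of the pathway, transcripts of both AGPase subunits were lower in each low nitrogen library than in either high nitrogen library, and neither gene passed the adjusted test. The AGPase small subunit (GRMZM2G163437, paired with agpsl1 in the reference) forms the catalytic part of the enzyme. In B73 RefGen_v3, the build of all positions given here, it spans 221701404 to 221705997 of chromosome 1. It had 471 and 485 FPKM at high nitrogen and 249 and 284 FPKM at low nitrogen. The low nitrogen mean was 55.7% of the high nitrogen mean, and the 2 groups were far apart compared with their replicates. This gave a log2 fold change of -0.84 (standard error, SE, 0.24, 95% interval -1.45 to -0.24, limma unadjusted p = 0.0159, adjusted p = 0.168).

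The large subunit (GRMZM2G391936), which mainly tunes the enzyme's response to metabolites, lies further along chromosome 1, from 273514151 to 273518985. Its level was 237 and 254 FPKM at high nitrogen and 110 and 153 FPKM at low nitrogen. The low nitrogen mean was 53.5% of the high nitrogen mean, with no overlap and a wider replicate gap at low nitrogen than the small subunit. This gave a log2 fold change of -0.91 (SE 0.27, 95% interval -1.60 to -0.23, limma unadjusted p = 0.0190, adjusted p = 0.176).

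The large subunit stood at 0.503 and 0.523 of the small subunit's FPKM at high nitrogen and at 0.442 and 0.537 at low nitrogen, so the treatments overlapped. This ratio is taken within a library, and a common factor for that library cannot move it.

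Among the synthases, GBSSII (GRMZM2G008263, GBSSIIa in the reference, chromosome 7 from 34885173 to 34892432) had the lowest log2 fold change of the 7 genes tested. It is the granule-bound synthase of leaves and other tissues with transient starch. It had 85.7 and 107 FPKM at high nitrogen and 8.85 and 40.0 FPKM at low nitrogen. Both low nitrogen libraries were below both high nitrogen libraries, but they differed widely from each other. The means were 96.6 ± 15.4 and 24.4 ± 22.0 FPKM (SD, n = 2 each), low nitrogen standing at 25.3% of high nitrogen. This gave a log2 fold change of -2.27 (SE 0.69, 95% interval -4.06 to -0.49, limma unadjusted p = 0.0222, adjusted p = 0.185). Without low nitrogen replicate 1 it was -1.24, and without low nitrogen replicate 2 it was -3.30, so its size depends on which of these libraries is used.

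SS1 (GRMZM2G129451, chromosome 9 from 17640522 to 17651342), which extends short amylopectin chains, was the most abundant of the 3 synthases in every library. It had 208 and 237 FPKM at high nitrogen and 132 and 210 FPKM at low nitrogen. Low nitrogen replicate 2 lay inside the high nitrogen range. This gave a log2 fold change of -0.41 (95% interval -1.21 to 0.39, limma adjusted p = 0.507). It was -0.079 without low nitrogen replicate 1 and -0.74 without low nitrogen replicate 2.

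SS3 (GRMZM2G141399, chromosome 10 from 59516234 to 59527812) is the gene dull1, known from its role in endosperm amylopectin. It was scarcely expressed, with 0.170 and 0.689 FPKM at high nitrogen and 0.955 and 2.47 FPKM at low nitrogen. Both low nitrogen libraries were above both high nitrogen ones, whereas the means of SS1 and GBSSII were lower at low nitrogen. When every locus above 0 in at least 1 library was tested, its log2 fold change was 0.89 (95% interval -0.13 to 1.91, limma unadjusted p = 0.0742, adjusted p = 0.362 over 31737 loci).

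The share of each gene in the summed transcripts of the 3 synthases of the set was then compared. Other starch synthases are outside this sum: su2 (starch synthase 2a), and ss2b, ss2c, ss3b and ss4, which were not tied to a locus. GBSSII held 29.2% and 31.2% of the summed FPKM of the 3 synthases at high nitrogen and 6.23% and 15.8% at low nitrogen. SS1 held 70.8% and 68.6% at high nitrogen and 93.1% and 83.2% at low nitrogen, and SS3 stayed under 1% throughout, with 0.977% as its highest share. The ratio of GBSSII to the sum of SS1 and SS3 was 0.411 and 0.453 at high nitrogen and 0.0665 and 0.188 at low nitrogen. The 2 treatments did not overlap in this ratio, and the difference of its mean log2 values, low minus high nitrogen, was -1.95 (pooled SD 0.75, given without a test). It was -1.20 without low nitrogen replicate 1, -2.70 without low nitrogen replicate 2 and -2.17 under quantile normalization.

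**Figure D2:**
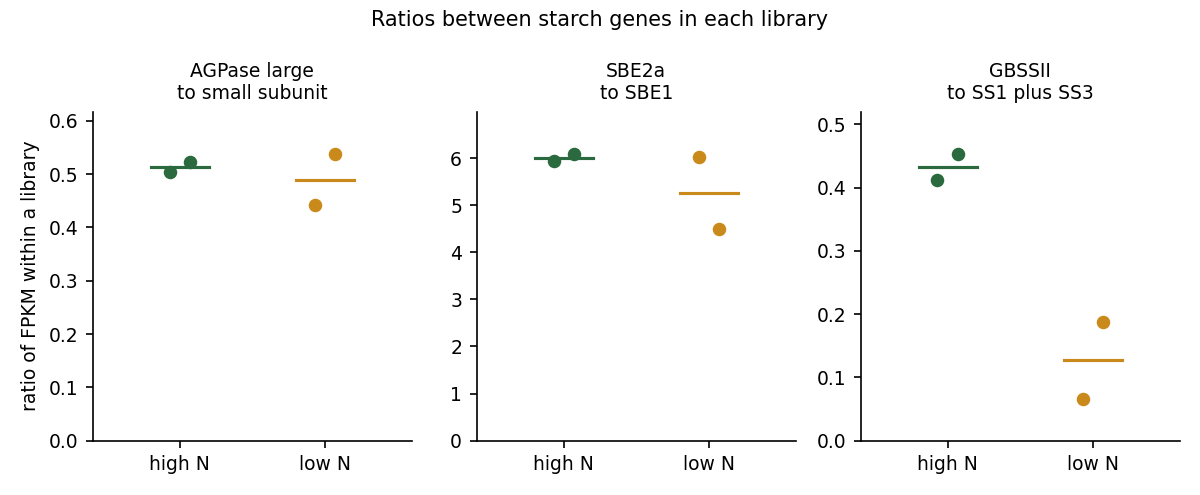
Ratio of FPKM between starch genes within each library, for the AGPase subunits, the branching enzymes and GBSSII against the soluble synthases, with axes from 0, 1 point per library and a bar at the mean of 2. The treatments overlap in the first and second panels, and in the third the high nitrogen libraries sit at 0.411 and 0.453 and the low nitrogen libraries at 0.0665 and 0.188.

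None of the branching and debranching genes had an unadjusted p under 0.05. SBE2a (GRMZM2G073054, chromosome 2 from 59216710 to 59226937), the main branching enzyme of maize leaves, had 74.3 and 88.4 FPKM at high nitrogen and 74.3 and 61.6 FPKM at low nitrogen. The closest libraries of the 2 treatments differed by a few hundredths of an FPKM, so the separation is nominal. This gave a log2 fold change of -0.26 (95% interval -0.88 to 0.37, limma adjusted p = 0.597), and with 1 library left out in turn it lay between -0.39 and -0.12.

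SBE1 (GRMZM2G088753, chromosome 5 from 63346023 to 63358221) transfers longer chains than the other class of branching enzymes, and it had the smallest absolute log2 fold change of the 7 genes tested. It had 12.5 and 14.5 FPKM at high nitrogen and 12.3 and 13.7 FPKM at low nitrogen. The treatments overlapped, with a log2 fold change of -0.05 (95% interval -0.62 to 0.52, limma adjusted p = 0.923). Its locus also carries the name GRMZM2G088737, so its value cannot be assigned to 1 of the 2 names.

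The ratio of SBE2a to SBE1 was 5.93 and 6.08 at high nitrogen and 6.03 and 4.49 at low nitrogen. Low nitrogen replicate 1 lay within the high nitrogen range and replicate 2 below it.

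The isoamylase su1 (GRMZM2G138060, chromosome 4 from 41396390 to 41405179), known from sweet corn, was lowly expressed. It had 1.52 and 3.03 FPKM at high nitrogen and 2.99 and 1.81 FPKM at low nitrogen. Replicates differed more than treatments did, and the log2 fold change was 0.07 (95% interval -0.88 to 1.02, limma adjusted p = 0.936). For this gene, SBE2a and the AGPase large subunit, the enzyme name comes from the list that defined the set, since the reference gives the gene no such name. No other locus of the table overlapped any of the 8, but reads from related starch genes may have been divided among these loci when FPKM were estimated, which was not tested.

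Summed over the 8 genes, expression was 1091 and 1190 FPKM at high nitrogen and 590 and 767 FPKM at low nitrogen, the low nitrogen sum being 59.5% of the high nitrogen sum. The AGPase small subunit alone held between 37.1% and 43.2% of the sum in each library. The sum is thus mainly a measure of AGPase and SS1. In bulk leaf RNA, fewer cells of a type and less RNA per cell cannot be told apart. The mesophyll markers and rca1 were also lower at low nitrogen, and their part in these differences was not tested.

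The log2 fold changes of the AGPase subunits depend on how the libraries are scaled. Setting the FPKM sums of the libraries equal moved the median log2 fold change of all tested loci from -0.01 to 0.59. On that scale the small and large AGPase subunits had log2 fold changes of -0.14 and -0.21. Relative to the median of all tested loci these are -0.73 and -0.80, against -0.83 and -0.90 with FPKM as deposited. With equal sums SS1, SBE2a and SBE1 turned from negative to positive values. Relative to the median of all tested loci they were at -0.30, -0.15 and 0.019, against -0.40, -0.24 and -0.035 with FPKM as deposited. Under quantile normalization the AGPase values were -0.36 and -0.55, or -0.37 and -0.56 relative to the median of all tested loci. GBSSII stayed at -1.59 with equal sums and at -2.12 under quantile normalization.

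**Figure D3:**
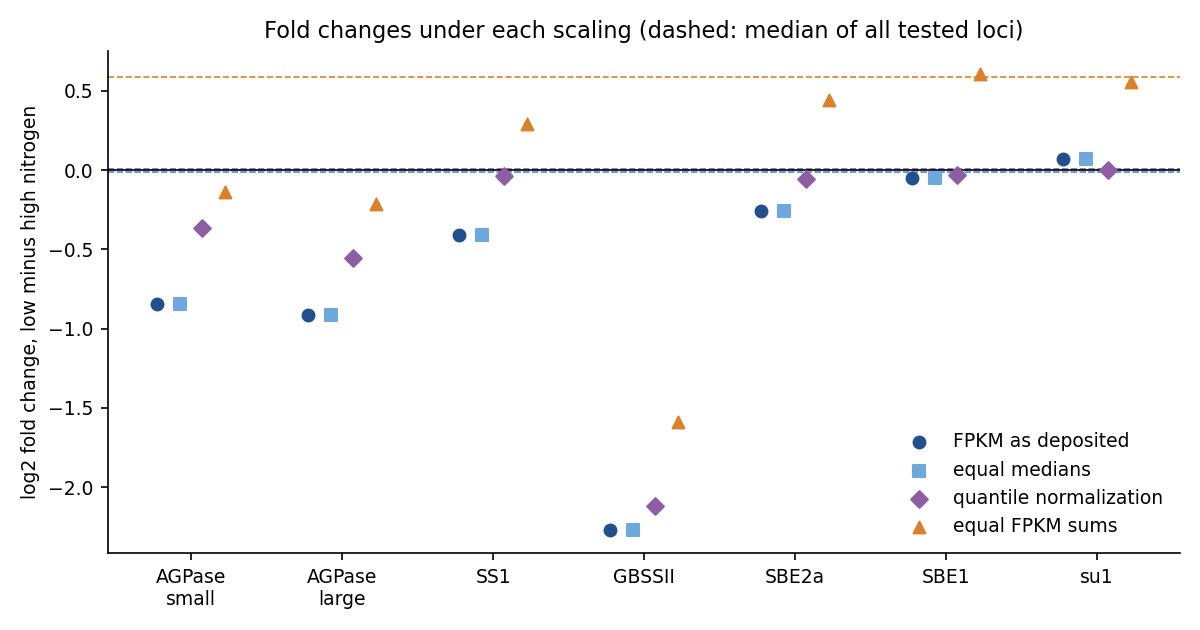
Log2 fold change, low minus high nitrogen, of the 7 tested starch genes with FPKM as deposited, with equal medians, under quantile normalization and with equal FPKM sums, and dashed lines at the median of all tested loci for each scaling. GBSSII lies between -2.27 and -1.59 throughout, and both AGPase subunits stay negative but reach -0.14 and -0.21 with equal sums. SS1, SBE2a and SBE1 change sign with equal sums, where the dashed median stands at 0.59. The sign of su1, very near 0, changes under quantile normalization.

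Other genes of the pathway were followed as a wider list of 29 symbols, of which 12 could be tied to a locus through the reference names. Of these, 8 were tested, 4 lower and 4 higher at low nitrogen. With equal FPKM sums, where the median over all tested loci was 0.59, 1 was lower (bmy1) and 7 were higher. With FPKM as deposited none of the 8 was called by limma, against 0.537% of all tested loci. Of the 8, 1 (bmy1) was lower at an unadjusted p under 0.05, against 10.8% of all tested loci. In starch synthesis 15 symbols were listed and 4 genes were tested. Their median log2 fold change was 0.12, from -0.27 at sbe3 (branching enzyme) to 0.61 at su2 (starch synthase 2a). The most abundant of the starch synthesis genes on this list was isa2, a partner of su1 in the isoamylase complex, with 15.3 and 12.9 FPKM at high nitrogen and 18.0 and 11.8 FPKM at low nitrogen. It exceeded su1 in every library.

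The endosperm counterparts were scarce next to the leaf genes they match. The endosperm AGPase small subunit bt2 (brittle2) had 5.18 and 7.86 FPKM at high nitrogen and 6.95 and 7.92 FPKM at low nitrogen, with a log2 fold change of 0.19 (adjusted p = 0.745 by limma). The large subunit sh2 (shrunken2) stayed between 0.168 and 0.360 FPKM and the branching enzyme ae1 (amylose extender1) between 0.216 and 0.513 FPKM. The granule-bound synthase wx1 (waxy1) was at most 0.247 FPKM in 3 libraries and had 2.43 FPKM in high nitrogen replicate 2. Next to GBSSII, wx1 was thus a minor transcript in every library.

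In starch breakdown, only 4 of the 14 symbols listed were tied to a locus, and these 4 tested genes had a median log2 fold change of -0.25. Symbols such as gwd1 (glucan, water dikinase) and mex1 (maltose exporter) were not resolved, so this median covers a part of the breakdown route. The highest mean level was that of pho1, the plastid glucan phosphorylase, with 28.2 and 28.8 FPKM at high nitrogen and 35.2 and 32.4 FPKM at low nitrogen, and its log2 fold change was 0.24 (limma adjusted p = 0.577). The lowest value was at the beta-amylase bmy1, an enzyme that releases maltose, with 28.3 and 57.6 FPKM at high nitrogen and 14.3 and 7.12 FPKM at low nitrogen. The low nitrogen libraries were both below the high nitrogen ones, and the log2 fold change was -1.89 (SE 0.48, unadjusted p = 0.0108 and adjusted p = 0.150 by limma).

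**Figure D4:**
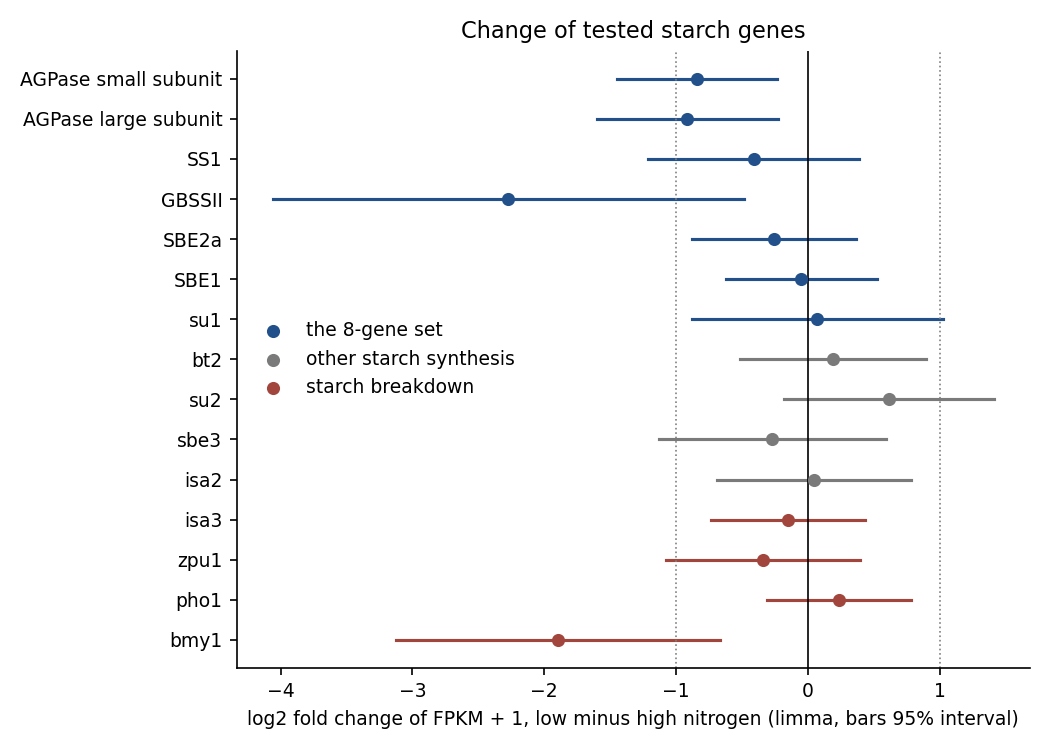
Log2 fold change of FPKM + 1, low minus high nitrogen, of the 7 tested genes of the set and 8 other starch genes, with bars for limma's 95% interval and dotted lines at a log2 fold change of 1 in either direction. The intervals of both AGPase subunits, GBSSII and bmy1 lie below 0, before adjustment for the 22889 loci tested, and those of the other genes include 0.

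The study's own list of differentially expressed genes includes GBSSII and bmy1 and assigns 2 further beta-amylases to starch breakdown. The authors drew it up with edgeR, at a false discovery rate under 0.05 and a log2 fold change above 1. Genes on it were thus called by the authors, while none of those given here was called by limma on FPKM. Limma called 123 of all tested loci, far fewer than the genes on the authors' whole list, so this difference is not particular to starch genes. The list was drawn from these libraries, so its members are not independent evidence of a direction. On that list bmy1 (GRMZM2G058310) is annotated as similar to BAM5 of Arabidopsis. GRMZM5G803981, annotated there as similar to BAM6 of Arabidopsis, had 23.0 and 25.4 FPKM at high nitrogen and 0.779 and 7.12 FPKM at low nitrogen, and its log2 fold change was -2.73 (limma adjusted p = 0.159). GRMZM2G035749, similar to the chloroplast beta-amylase BAM3, had 11.4 and 11.5 FPKM at high nitrogen and 64.4 and 15.8 FPKM at low nitrogen, and its log2 fold change was 1.42 (limma adjusted p = 0.310). Of the 3 beta-amylases, bmy1 and the BAM6-like gene were thus lower and the BAM3-like gene higher in both low nitrogen libraries, and none passed the adjusted test. The list places 2 more genes under starch synthesis, a glycosyltransferase (GRMZM2G026889) with a log2 fold change of 1.17 (adjusted p = 0.232 by limma) and an ADP/ATP carrier (GRMZM2G420988) with 1.36 (limma adjusted p = 0.207).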

How the data were processed

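Paired-end reads of 125 nucleotides were mapped by the authors with TopHat2 on B73 RefGen_v3, StringTie served for transcript assembly, and the deposited value of a locus is its FPKM (versions are not given in the sources used here). Loci were kept once each, and positions are those of the table with starts counted from 1. Treatments were compared on log2(FPKM + 1) with limma 3.58.1 in R 4.3.3 (eBayes with an intensity trend), without a block. Fold changes on this scale are too small for low loci. In simulated data for this comparison over 22889 loci, 101 of 200 loci changed by at least 2 on the log2 scale were called and 9 unchanged loci were called. The simulated noise was independent and normal, and the number of changed loci was set rather than taken from the data. Smaller changes, such as those of the AGPase subunits, were not simulated. Figures and summaries used Python 3.11.15 with pandas 2.3.3. RefSeq's table for the assembly Zm-B73-REFERENCE-NAM-5.0 supplied gene names only. The text names all 8 members and, of the wider list, the extremes, the most abundant gene and the endosperm counterparts; the beta-amylases of the study's list were added after values were seen. Members and lists were chosen with earlier results of these data known. Alternatives were another pseudocount, other filters, 3 scalings, no trend, the replicate block, no fold threshold and each library left out.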

Additional observations from a re-analysis of the deposited data

How the results depend on the processing

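Limma called no starch gene of the set or of the wider list under any alternative in which it was tested. A minimum of 5 FPKM left 6 genes of the set and 5 of the wider list to test. The number of genes of the set with an unadjusted p under 0.05, 3 of 7 as reported, was 0 with equal FPKM sums and 1 under quantile normalization. It also changed with the library left out. The share of all tested loci at this level was not computed for these settings. Over all tested loci the number of calls, 123, was 23 with every locus above 0 tested, 60 with equal FPKM sums, and from 0 to 54 with 1 library left out. The 0 was without low nitrogen replicate 2, where 2787 loci passed the fold threshold at an unadjusted p under 0.05. With equal FPKM sums the median of the set was 0.29 in place of -0.41, and that of all tested loci 0.59 in place of -0.01. On that scale SS1 stood at 0.29, SBE2a at 0.44 and SBE1 at 0.61. Under quantile normalization su1 was at -0.0025. With 1 library left out SBE1 ran from -0.15 to 0.051, su1 from -0.27 to 0.41, SS1 from -0.74 to -0.079, SBE2a from -0.39 to -0.12, GBSSII from -3.30 to -1.24 with adjusted p from 0.0969 to 0.494, and the small and large AGPase subunits from -0.94 to -0.75 and from -1.15 to -0.68. The log2 ratio difference of the AGPase subunits, -0.07, then ran from -0.21 to 0.066, that of SBE2a to SBE1, -0.21, from -0.42 to 0.0056, and that of GBSSII to SS1 plus SS3, -1.95, from -2.70 to -1.20. The cause of these shifts was not tested.

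Replicate numbers 1 and 2 recur in both treatments, but no source says that they pair the libraries. Deviations of same-numbered libraries had a correlation of 0.203 across loci. With the replicate block 617 loci were called, none of them a starch gene of the set, and GBSSII had an adjusted p of 0.0617.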
